A study of Mus musculus with 4 samples.

Results

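The 58 mitosis and chromosome segregation genes described here were chosen by name, as genes whose products build the mitotic chromosome, the kinetochore, the spindle and the division furrow or time their use, out of 19737 genes in the count matrix. All 58 passed the filter on low counts. The rule that lists them uses no measured value, but it was drawn up with earlier results of these data known. They were sorted by known role into 10 groups. These are 8 kinases and partners of the cyclin-dependent kinase Cdk1, 3 transcription factors, 7 genes of condensin and chromosome structure, 8 of the centromere and kinetochore, 4 of the chromosomal passenger complex, 5 of the spindle checkpoint, 8 kinesins, 7 spindle and microtubule-binding genes, 5 of anaphase and ubiquitin tagging and 3 of cytokinesis.

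The study injected mice with antibodies to TREM2, a lipid receptor of microglia, and sorted brain microglia for single-cell RNA sequencing 24 h after an intravenous dose of 10 mg/kg. The antibody 4D9 binds mouse TREM2. ATV:4D9 is 4D9 with an antibody transport vehicle, an Fc domain engineered to bind the human transferrin receptor so that the antibody crosses the blood–brain barrier, and ATV:ISO is a control antibody with the same vehicle. Each of 5 groups held 4 mice aged 8 months, and UMI counts were summed for each mouse.

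Every mouse carried TfRmu/hu, a knock-in of the human apical domain into the mouse transferrin receptor, which the vehicle needs, so the controls carry it too. WT;TfRmu/hu mice (WT below) received ATV:ISO or ATV:4D9. AppSAA;TfRmu/hu mice (AppSAA below), which also carry a humanised, mutated App knock-in allele that drives amyloid deposition, received ATV:ISO, 4D9 or ATV:4D9. The isotype arm is labelled ATV-DNP02, and that this is ATV:ISO is a reading of the labels. Labels and methods give the sorted cells as CD11b+ or as CD11b+ CD45+, and the brain tissue with and without the hippocampus. There were 4 pools, each with 1 mouse of every group, and 1 WT mouse given ATV:ISO (pool 4) is recorded as female. Values for single mice below are in the order of pools 1 to 4. No WT mice given 4D9 were analysed here.

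The mice gave 2193 to 6126 cells and 17150296 to 102446549 UMIs each, from 74758 cells in all. Median UMIs per cell lay between 13479 and 17290 in the 8 mice given ATV:4D9 and between 6859 and 11552.5 in the other 12, and levels below are UMIs per 1000000 UMIs of the mouse (CPM), which scale every mouse to its own total. Of 7 microglial markers (Cx3cr1, P2ry12, Tmem119, Csf1r, C1qa, Fcrls and Olfml3), each was seen in 96% to 100% of cells, and only 7 cells held more UMIs of another cell type's marker list than of this one. There were 543 barcodes found in more than 1 pool, in 1089 cells. In sums per mouse, more cells that express a gene and more RNA per cell cannot be told apart.

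During mitosis, condensin and topoisomerase pack the replicated chromosomes, kinetochores on each centromere bind spindle microtubules, and the spindle checkpoint holds back the anaphase-promoting complex until all are attached. That complex then marks securin (Pttg1) and cyclin B for destruction, which frees separase (Espl1) to cut cohesin. Most genes of this machinery are transcribed in G2 and M phase. The MuvB complex, with Mybl2 and Foxm1, acts on them at a CHR element (TTTGAA), and many also hold CCAAT boxes near the start site. Microglia in the adult brain divide rarely, and their proliferation is tied to Csf1r and TREM2 signalling.

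The promoters of 5 members are shown because their levels moved in different ways below, Cdk1 and Cdc20 rising in both genotypes, Bub3 and Espl1 differing little with ATV:4D9, and Pttg1 falling in WT and rising in AppSAA. Sequences are from RefSeq, build GRCm38.p6, the 100 bases before the annotated start on the gene's own strand, with CHR and CCAAT letters in capitals on either strand (ATTGG and TTCAAA are the opposite-strand forms). They lie at chr10:69352913-69353012 (minus strand) for Cdk1, chr4:118437344-118437443 (minus) for Cdc20, chr7:131560270-131560369 (plus) for Bub3, chr15:102296193-102296292 (plus) for Espl1 and chr11:43425982-43426081 (minus) for Pttg1.
Cdk1: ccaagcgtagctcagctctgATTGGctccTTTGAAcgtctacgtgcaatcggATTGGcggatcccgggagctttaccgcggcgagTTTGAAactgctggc
Cdc20: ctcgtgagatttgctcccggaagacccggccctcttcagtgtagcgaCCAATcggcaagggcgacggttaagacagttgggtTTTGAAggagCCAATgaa
Bub3: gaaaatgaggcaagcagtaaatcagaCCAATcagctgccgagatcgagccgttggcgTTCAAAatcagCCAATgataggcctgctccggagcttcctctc
Espl1: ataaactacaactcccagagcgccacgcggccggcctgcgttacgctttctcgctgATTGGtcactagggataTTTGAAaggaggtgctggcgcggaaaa
Pttg1: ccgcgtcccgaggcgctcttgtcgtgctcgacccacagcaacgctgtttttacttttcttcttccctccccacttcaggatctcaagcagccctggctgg
Of the 50 members with a promoter entry (250 bases before to 50 after the start), 36 (72%) held TTTGAA, against 20.2% of 27025 symbols with an entry. CCAAT was found in 35 (70%), against 41.1%. Both motifs stood in 31 (62%), against 7.97%. Within the 150 bases before the start, 17 of 50 (34%) held both, against 2.63% of all symbols. Both motifs are thus also in the printed letters of Bub3 and Espl1, and neither is in those of Pttg1. Bub3 has another RefSeq start, whose 100 bases held no match. By the GENCODE gene ends on the same build, the printed windows of Bub3 (5′ end at 131560222) and Pttg1 (5′ end at 43426251) lie inside the gene, and those of Espl1 (102296266), Cdk1 (69352938) and Cdc20 (118437352) run into it. These letters are thus not, or not only, what precedes that start.

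ATV:4D9 raised nearly the whole set in both genotypes. In WT mice, 55 of 58 members rose and 1 (Pttg1) fell against ATV:ISO, while over all 14058 genes tested 30.8% were called higher and 32.5% lower (edgeR quasi-likelihood test after TMM scaling, adjusted p under 0.05 over all genes). The members' median log2 fold change was 3.21, beside -0.05 over all genes. In AppSAA mice, 57 members rose and none fell (27.9% and 27.1% of all genes), with a median of 2.25 beside -0.03. In CPM, all 4 ATV:4D9 mice lay above all 4 ATV:ISO mice for 54 members in WT (24.3% of all genes tested) and for 56 in AppSAA (22.9%). Summed over the 58 members, WT mice went from 408 ± 53.1 CPM with ATV:ISO to 1929.9 ± 154 with ATV:4D9 (SD, n = 4), and AppSAA mice from 451 ± 28.6 to 1594 ± 123. AppSAA mice given 4D9 were at 495 ± 61.8. Of the sums in WT mice given ATV:ISO, Bub3 alone made up 87.85 to 101.8 CPM and Pttg1 56.23 to 65.36 CPM. Some markers moved with the same groups. The 7 microglial markers summed to 24150 to 25750 CPM in WT mice given ATV:ISO and 18590 to 20610 with ATV:4D9, with 4 of 7 called lower, and to 17690 to 21130 and 18020 to 18980 in AppSAA, with 3 of 7 called lower. The 5 monocyte markers summed to 4.09 to 10.3 CPM in AppSAA mice given ATV:ISO and 10.00 to 13.8 with ATV:4D9, and to 4.93 to 8.27 and 6.22 to 7.38 in WT. Of these 5, 2 were called higher and 3 lower in AppSAA, and 2 higher and 1 lower in WT. The 4 erythroid markers reached 484 CPM in 1 AppSAA mouse given ATV:4D9 and at most 1.48 in the other groups, and the 1 erythroid gene tested was called higher with ATV:4D9 in AppSAA (7.84). Border macrophage markers (6 genes, 9.97 to 32.7 CPM) and neutrophil markers (6 genes, 4.48 to 23.8 CPM) gave no call in either genotype. The 4 endothelial markers went from 18.3 to 24.5 to 9.54 to 13.1 CPM in WT (1 called lower) and from 37.5 to 52.4 to 13.2 to 26.2 in AppSAA (2 called lower). The 4 oligodendrocyte markers went from 28.3 to 42.2 to 15.1 to 27.8 CPM in WT and from 31.6 to 45.6 to 15.7 to 40.4 in AppSAA (1 called lower in each). The 4 markers of oligodendrocyte precursors went from 0.991 to 2.34 to 1.57 to 2.87 CPM in WT (1 called higher) and from 11.4 to 20.2 to 5.30 to 8.30 in AppSAA (1 higher and 1 lower). T and NK cell markers stayed under 2.50 CPM in sum, with 1 called lower in AppSAA, neuron markers at most at 2.05 CPM, with 1 called lower in each genotype and 1 higher in AppSAA, and astrocyte and B cell markers gave no call. The part of these in the members' rise was not tested.

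**Figure D1:**
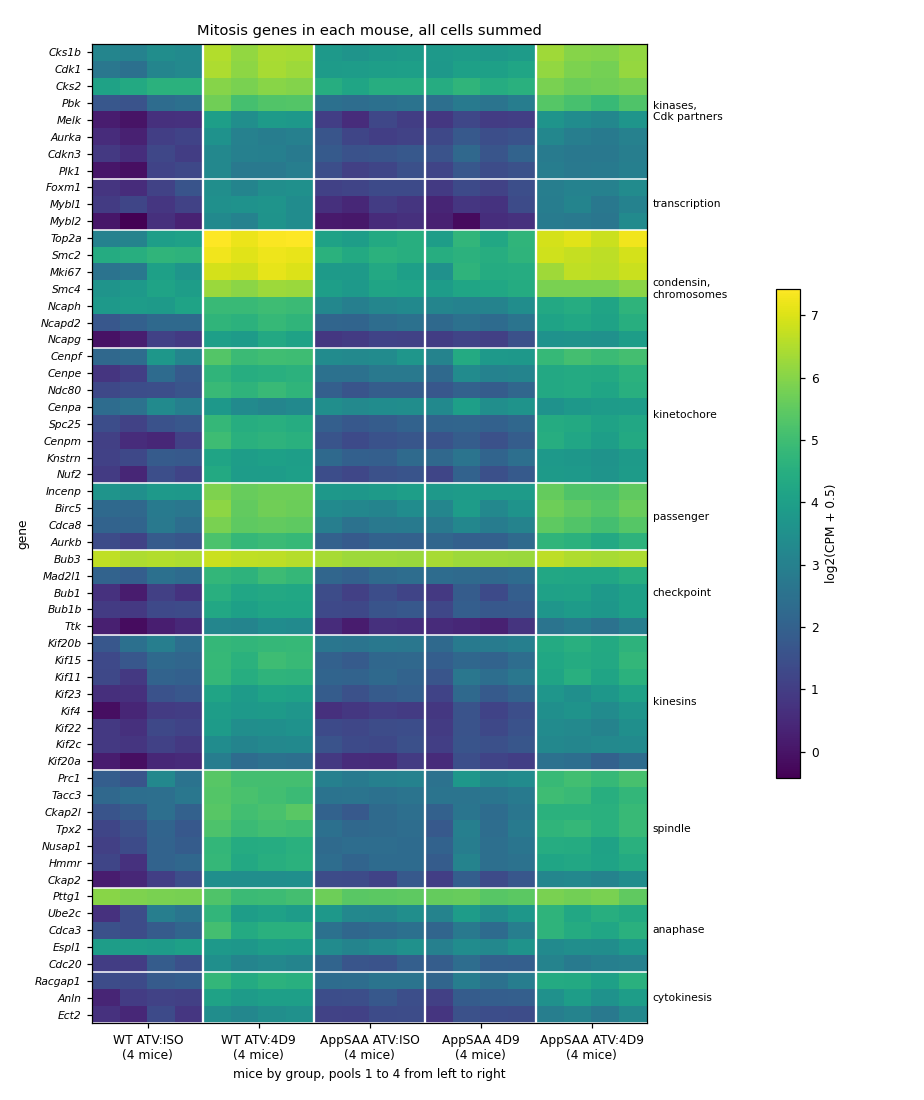
Levels of the 58 members in each of the 20 mice, as log2(CPM + 0.5), with genes in rows ordered by role and mice in columns ordered by group and pool. Columns of the 8 mice given ATV:4D9 are brighter for nearly all rows than those of the other 12, while the rows of Bub3 and Espl1 change little and that of Pttg1 is darker in WT mice given ATV:4D9 than in WT controls.

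Among kinases and Cdk partners, all 8 rose in both genotypes, with median log2 fold changes of 3.09 in WT and 2.12 in AppSAA. Cdk1, the kinase that drives entry into mitosis, stood at 5.95, 5.08, 8.29 and 9.08 CPM in the WT mice given ATV:ISO and at 86.8, 67.9, 84.8 and 77.3 in those given ATV:4D9, a log2 fold change of 3.59 ± 0.15 (SE; adjusted p = 5.3e-14). The AppSAA mice had 14.4, 14.7, 15.2 and 15.7 CPM of Cdk1 with ATV:ISO, 13.2, 15.9, 16.1 and 17.6 with 4D9 and 70.4, 58.7, 54.3 and 71.5 with ATV:4D9, a change of 2.16 ± 0.13 between the first and last. Neither pair of groups overlapped. Cks1b, a small subunit that binds Cdk1, went from 8.46, 7.81, 10.1 and 9.47 to 91.1, 70.7, 86.4 and 83.7 CPM in WT (3.33 ± 0.12). In AppSAA, Cks1b counted 13.3, 12.1, 12.9 and 14.0 CPM with ATV:ISO, 13.2, 14.2, 13.1 and 14.4 with 4D9 and 79.2, 63.6, 61.8 and 71.4 with ATV:4D9 (2.48 ± 0.11). Its levels with 4D9 overlapped those with ATV:ISO, and its reads could be shared with the retrogene Cks1brt. Melk, a kinase of dividing cells, was at 0.641, 0.488, 1.07 and 1.13 CPM with ATV:ISO and 15.3, 10.6, 13.9 and 13 with ATV:4D9 in WT (4.07 ± 0.23), the widest rise of this role. In AppSAA, Melk was at 1.55, 0.975, 1.85 and 1.48 CPM with ATV:ISO, 1.31, 1.87, 1.45 and 1.56 with 4D9 and 12, 9.92, 8.74 and 12.2 with ATV:4D9. Cks2, a paralog of Cks1b, rose least in WT (1.70 ± 0.10), and Plk1, Aurka, Pbk and Cdkn3 lay between.

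The 7 genes of condensin and chromosome structure all rose in both genotypes, with medians of 2.91 and 2.38. Mki67, which coats mitotic chromosomes, counted 5.36, 6.1, 16.1 and 12.2 CPM in WT mice given ATV:ISO and 121, 112, 141 and 129 in those given ATV:4D9 (3.79 ± 0.25, adjusted p = 6.9e-11). In AppSAA mice it counted 13.8, 13.9, 19.5 and 15.6 CPM with ATV:ISO, 11.3, 25.1, 20.9 and 21.1 with 4D9 and 78.6, 102, 97.1 and 112 with ATV:4D9 (2.70 ± 0.23, adjusted p = 6.2e-09). Every ATV:4D9 mouse was far above every other mouse, and the WT mice given ATV:ISO were lower in pools 1 and 2 than in pools 3 and 4. Top2a, the topoisomerase that untangles sister chromatids, was at 7.81, 7.91, 15.4 and 16.3 CPM with ATV:ISO and 172, 147, 168 and 170.1 with ATV:4D9 in WT (3.91 ± 0.21). In AppSAA, Top2a was at 16.8, 15.0, 19.7 and 21.9 CPM with ATV:ISO, 14.8, 26.6, 19.1 and 25.9 with 4D9 and 122, 136, 112 and 154 with ATV:4D9 (2.91 ± 0.20). The same split of the WT controls by pool was seen for it.

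The condensin I subunits did not move alike. Ncapg went from 0.467, 0.683, 1.64 and 1.38 to 15.5, 14.1, 19.6 and 16.8 CPM in WT (4.06 ± 0.21), and in AppSAA from 1.30, 1.42, 1.71 and 1.67 with ATV:ISO and 1.49, 1.79, 1.57 and 2.39 with 4D9 to 11.3, 11.8, 11.2 and 14.8 with ATV:4D9 (3.07 ± 0.18). Ncapd2 went from 2.74, 3.47, 4.30 and 4.31 to 26.0, 24.0, 27.8 and 25.9 CPM in WT (2.91 ± 0.12), and in AppSAA from 3.91, 3.78, 4.74 and 5.22 with ATV:ISO and 4.32, 5.18, 4.54 and 5.57 with 4D9 to 17.1, 18.5, 16.8 and 22.0 with ATV:4D9 (2.14 ± 0.11). Groups given ATV:4D9 did not overlap the others for either gene. Ncaph, the kleisin of the same complex, started higher and rose less, from 13.6, 14.6, 14.0 and 16.9 to 29.3, 29.5, 31.0 and 30.2 CPM in WT (1.13 ± 0.10). In AppSAA, Ncaph counted 8.66, 7.24, 8.57 and 9.30 CPM with ATV:ISO, 8.32, 7.85, 7.93 and 10.3 with 4D9 and 19.4, 21.2, 17.2 and 25.4 with ATV:4D9 (1.37 ± 0.10). It was 1 of the few members lower in AppSAA than in WT mice under both antibodies, as given below.

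**Figure D2:**
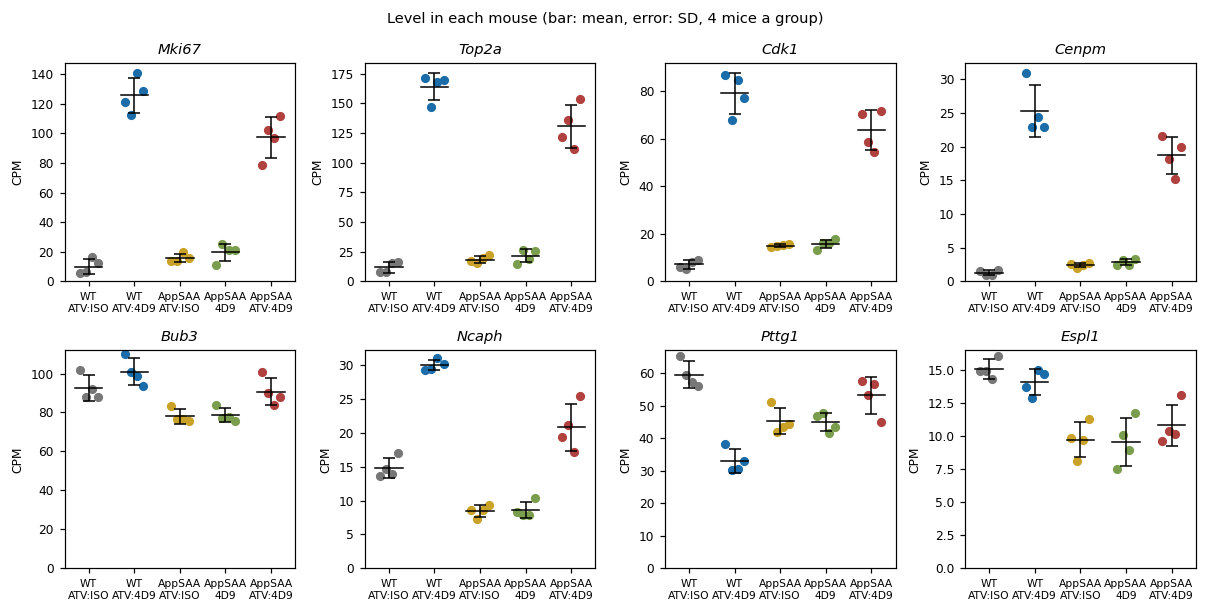
CPM per mouse for Mki67, Top2a, Cdk1, Cenpm, Bub3, Ncaph, Pttg1 and Espl1 in the 5 groups, with each point a mouse and bars for the mean ± SD (n = 4). In the first 4 panels both ATV:4D9 groups stand clear of the other 3 groups, Bub3 and Espl1 differ little between antibodies within a genotype, and Pttg1 is lowest in WT mice given ATV:4D9 (30.2 to 38.4 CPM).

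At the centromere and kinetochore all 8 members rose in both genotypes, with medians of 3.39 and 2.28. Cenpm, of the inner kinetochore, had the widest WT change of the set, from 1.57, 0.976, 0.870 and 1.62 to 30.9, 23.0, 24.4 and 22.9 CPM (4.43 ± 0.21, adjusted p = 3.4e-13). In AppSAA, Cenpm was at 2.55, 2.04, 2.46 and 2.71 CPM with ATV:ISO, 2.47, 3.19, 2.36 and 3.24 with 4D9 and 21.6, 18.1, 15.2 and 19.96 with ATV:4D9 (3.02 ± 0.17). No mouse given ATV:4D9 overlapped the others. Cenpe, a kinesin that moves chromosomes to the spindle equator, was at 1.22, 1.56, 4.45 and 2.97 CPM with ATV:ISO and 25.9, 21.5, 22.7 and 24.1 with ATV:4D9 in WT (3.32 ± 0.24). In AppSAA, Cenpe was at 5.19, 5.22, 6.18 and 6.29 CPM with ATV:ISO, 4.29, 9.75, 7.77 and 8.15 with 4D9 and 19.4, 20.2, 19.9 and 23.8 with ATV:4D9 (1.93 ± 0.21). Ndc80, which grips the microtubule, had the smallest adjusted p of the set in WT (2.4e-15), with 1.92, 2.20, 2.25 and 2.65 CPM in controls and 29.1, 25.3, 29.4 and 25.9 with ATV:4D9 (3.71 ± 0.12). In AppSAA, Ndc80 was at 3.36, 2.58, 3.24 and 3.18 CPM with ATV:ISO, 2.80, 3.56, 3.13 and 3.94 with 4D9 and 19.4, 20.1, 17.6 and 22.7 with ATV:4D9 (2.77 ± 0.11). For Cenpe and Ndc80 too the ATV:4D9 mice were all above the rest.

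Cenpf, another kinetochore protein of G2 and M phase, rose less, from 4.20, 4.64, 12.6 and 8.34 to 39.3, 29.7, 32.0 and 31.4 CPM in WT (2.28 ± 0.25). In AppSAA, Cenpf was at 9.86, 9.17, 9.79 and 12.5 CPM with ATV:ISO, 7.99, 20.1, 13.6 and 13.1 with 4D9 and 28.1, 33.4, 30.1 and 33.4 with ATV:4D9 (1.67 ± 0.23). Cenpa, the histone variant that marks the centromere, rose least of the kinetochore members, by 0.72 ± 0.18 in WT (adjusted p = 0.0019) and 0.48 ± 0.17 in AppSAA (adjusted p = 0.021). WT controls had 4.61, 5.32, 9.62 and 7.24 CPM of Cenpa and WT mice given ATV:4D9 had 12.9, 9.65, 8.43 and 9.33, so these groups overlapped. Nuf2, Spc25 and Knstrn changed by 3.49 ± 0.22, 3.47 ± 0.15 and 2.84 ± 0.17 in WT.

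The chromosomal passenger complex corrects wrong attachments, and all 4 of its members rose, with medians of 3.5 in WT and 2.57 in AppSAA. Aurkb, its kinase, was at 2.16, 1.66, 3.02 and 2.72 CPM with ATV:ISO and 36.1, 27.4, 29.9 and 28.0 with ATV:4D9 in WT (3.78 ± 0.16) and at 3.55, 3.00, 3.60 and 3.5 CPM with ATV:ISO, 3.96, 3.44, 3.45 and 4.43 with 4D9 and 25.9, 23.6, 19.5 and 24.8 with ATV:4D9 in AppSAA (2.86 ± 0.15). Incenp, its scaffold, started at 11.9, 10.7, 13.4 and 13 CPM in WT and reached 59.7, 47.6, 51.8 and 51.0 with ATV:4D9 (2.22 ± 0.11). In AppSAA, Incenp was at 13, 12.7, 13.9 and 15.3 CPM with ATV:ISO, 13.6, 14.3, 14.2 and 14.4 with 4D9 and 46.6, 38.3, 37.4 and 45.2 with ATV:4D9 (1.69 ± 0.10). Groups given ATV:4D9 stood apart for both genes. Birc5 (survivin) and Cdca8 (borealin) rose by 3.49 ± 0.19 and 3.51 ± 0.17 in WT.

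Of 5 spindle checkpoint members, 4 rose in WT and all 5 in AppSAA, with medians of 3.48 and 2.63. Bub1, a checkpoint kinase at the kinetochore, went from 1.11, 0.635, 1.59 and 1.17 to 22.4, 18.1, 19.3 and 18.7 CPM in WT (4.25 ± 0.23). In AppSAA, Bub1 was at 2.11, 1.58, 2.19 and 1.79 CPM with ATV:ISO, 1.34, 3.12, 2.02 and 3.31 with 4D9 and 16.2, 16.6, 13.7 and 15.8 with ATV:4D9 (3.10 ± 0.19). Mad2l1, which holds Cdc20 inactive, went from 3.73, 3.27, 5.01 and 4.49 to 26.7, 24.9, 30.4 and 27.3 CPM in WT (2.84 ± 0.11). In AppSAA, Mad2l1 was at 4.03, 3.55, 4.41 and 4.75 CPM with ATV:ISO, 4.65, 4.44, 4.16 and 4.51 with 4D9 and 19.1, 18.1, 18.1 and 21.7 with ATV:4D9 (2.28 ± 0.10). Neither gene overlapped between ATV:4D9 mice and the rest. Bub3, which brings Bub1 to the kinetochore, was at 102, 88, 92.2 and 87.8 CPM in WT controls and 110.2, 101, 98.8 and 93.6 with ATV:4D9, a log2 fold change of 0.24 ± 0.11 that was not called (adjusted p = 0.052). It was called higher with the pool as a block (0.24, adjusted p = 5.1e-06) and with RLE size factors, no low-count filter, DESeq2 or limma-voom (adjusted p 0.020 to 0.047). In AppSAA, Bub3 was at 83.5, 76.5, 76.7 and 75.4 CPM with ATV:ISO, 83.6, 77.4, 77.6 and 75.6 with 4D9 and 101, 90.2, 84.0 and 88.1 with ATV:4D9, a small rise (0.29 ± 0.10, adjusted p = 0.023). The WT groups overlapped, while all AppSAA mice given ATV:4D9 were above those given ATV:ISO.

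All 8 kinesins, the motors that slide and crosslink spindle microtubules, rose in both genotypes, with medians of 3.13 and 2.24. Kif4, a chromosome-bound kinesin, went from 0.408, 0.830, 1.43 and 1.48 to 14.8, 13.3, 13.9 and 12.5 CPM in WT (3.78 ± 0.21) and from 1.08, 1.30, 1.53 and 1.41 with ATV:ISO and 1.31, 2.49, 1.71 and 2.24 with 4D9 to 10.7, 11.6, 9.78 and 12.2 in AppSAA (3.11 ± 0.19). Kif20b, which acts in cytokinesis, went from 2.74, 5.03, 7.16 and 4.84 to 27.4, 26.2, 27.6 and 27.9 CPM in WT (2.58 ± 0.16), the least of the role. In AppSAA, Kif20b was at 5.78, 5.57, 6.15 and 5.98 CPM with ATV:ISO, 4.29, 6.56, 6.64 and 7.36 with 4D9 and 20.5, 22.3, 19.8 and 24.5 with ATV:4D9 (1.96 ± 0.15). The ATV:4D9 mice did not overlap the others for either.

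The 7 spindle and microtubule-binding genes rose together, with medians of 3.21 and 2.23. Tpx2, an activator of Aurka on the spindle, went from 1.81, 2.39, 3.79 and 2.83 to 37.4, 29.6, 32.3 and 31.6 CPM in WT (3.72 ± 0.21) and from 5.08, 4.16, 4.42 and 4.74 with ATV:ISO and 2.91, 7.23, 4.68 and 6.31 with 4D9 to 25.5, 27.6, 22.9 and 29.1 in AppSAA (2.59 ± 0.18). Prc1, which bundles the central spindle, went from 3.32, 2.59, 8.85 and 5.40 to 41.5, 33.7, 33.4 and 33.2 CPM in WT (2.94 ± 0.25). In AppSAA, Prc1 was at 7.55, 6.55, 7.41 and 7.79 CPM with ATV:ISO, 5.27, 12.9, 8.66 and 9.71 with 4D9 and 28.6, 32.4, 28.1 and 34.6 with ATV:4D9 (2.15 ± 0.23). Both genes stood apart in ATV:4D9 mice.

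The 3 cytokinesis genes rose, with medians of 3.27 and 2.08. Anln, the anillin of the contractile ring, was at 0.816, 1.46, 1.69 and 1.59 CPM with ATV:ISO and 16.6, 14.3, 15.7 and 15.5 with ATV:4D9 in WT (3.58 ± 0.18) and at 2.19, 2.25, 2.81 and 2.26 CPM with ATV:ISO, 1.60, 3.12, 3.31 and 3.40 with 4D9 and 11.2, 15.0, 11.4 and 14.9 with ATV:4D9 in AppSAA (2.53 ± 0.16). Racgap1, of centralspindlin, was at 2.16, 2.05, 3.02 and 3.29 CPM with ATV:ISO and 26.9, 20.3, 23.9 and 22.7 with ATV:4D9 in WT (3.27 ± 0.18). In AppSAA, Racgap1 was at 4.64, 4.69, 5.52 and 5.58 CPM with ATV:ISO, 3.92, 6.91, 5.15 and 6.90 with 4D9 and 20.2, 19.98, 15.9 and 23.1 with ATV:4D9 (2.03 ± 0.15). The transcription factors rose too, 3 of 3 in each genotype, with medians of 2.95 and 2.70. Mybl2, which activates G2 and M genes with MuvB, went from 0.525, 0.244, 1.07 and 0.742 to 9.32, 7.85, 11.7 and 10.1 CPM in WT (4.02 ± 0.30). In AppSAA, Mybl2 was at 0.611, 0.557, 0.954 and 1.09 CPM with ATV:ISO, 0.727, 0.374, 1.03 and 1.12 with 4D9 and 6.71, 6.21, 5.86 and 9.6 with ATV:4D9 (3.18 ± 0.26), the widest AppSAA rise of the set. Foxm1, a forkhead factor that acts on the same genes, went from 1.22, 0.976, 1.69 and 2.54 to 10.5, 8.13, 10.5 and 11.1 CPM in WT (2.72 ± 0.19). In AppSAA, Foxm1 was at 1.61, 1.76, 2.03 and 2.03 CPM with ATV:ISO, 1.38, 2.02, 1.67 and 2.28 with 4D9 and 7.11, 7.79, 7.62 and 9.75 with ATV:4D9 (2.18 ± 0.17). No ATV:4D9 mouse overlapped an ATV:ISO mouse of its genotype for these 4 genes.

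Of the 5 anaphase and ubiquitin genes, 3 rose and 1 fell in WT, and 4 rose in AppSAA. Cdca3, which targets mitotic brakes for destruction, went from 2.39, 2.15, 3.07 and 3.92 to 33.2, 20.1, 23.3 and 23.3 CPM in WT (3.22 ± 0.22) and from 5.16, 4.13, 4.53 and 5.07 with ATV:ISO and 3.92, 6.18, 4.54 and 7.12 with 4D9 to 25.3, 20.6, 18.1 and 23.1 in AppSAA (2.29 ± 0.20). Cdc20, the activator of the anaphase-promoting complex, rose by 2.21 ± 0.21 in WT and 1.36 ± 0.19 in AppSAA. Ube2c, the enzyme that starts its ubiquitin chains, rose by 2.28 ± 0.34 and 1.15 ± 0.30. These 3 rose in both genotypes, while separase was called in neither without a block and securin fell in WT and was called higher in AppSAA. Espl1 (separase) was at 14.9, 14.9, 14.3 and 16.1 CPM with ATV:ISO and 13.7, 12.8, 15.0 and 14.7 with ATV:4D9 in WT (0.02 ± 0.11, adjusted p = 0.91). In AppSAA, Espl1 was at 9.83, 8.10, 9.67 and 11.3 CPM with ATV:ISO, 7.48, 10.1, 8.98 and 11.7 with 4D9 and 9.65, 10.4, 10.2 and 13.1 with ATV:4D9 (0.23 ± 0.11, adjusted p = 0.075). Its groups overlapped in both genotypes and neither difference was called, while with the pool as a block the AppSAA difference was (0.23, adjusted p = 0.015). Pttg1 (securin) went from 65.4, 59.5, 57.5 and 56.2 CPM in WT controls down to 38.4, 30.2, 30.7 and 33.2 with ATV:4D9 (-0.73 ± 0.13, adjusted p = 4.3e-05). In AppSAA, Pttg1 was at 51.2, 42.1, 43.6 and 44.4 CPM with ATV:ISO, 46.8, 47.8, 41.7 and 43.6 with 4D9 and 57.7, 53.5, 56.7 and 45.2 with ATV:4D9 (0.31 ± 0.12, adjusted p = 0.041). The WT groups did not overlap and the AppSAA groups did, and the AppSAA call was lost in 6 of 8 fits that left out 1 mouse of these groups (0.22 to 0.32).

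**Figure D3:**
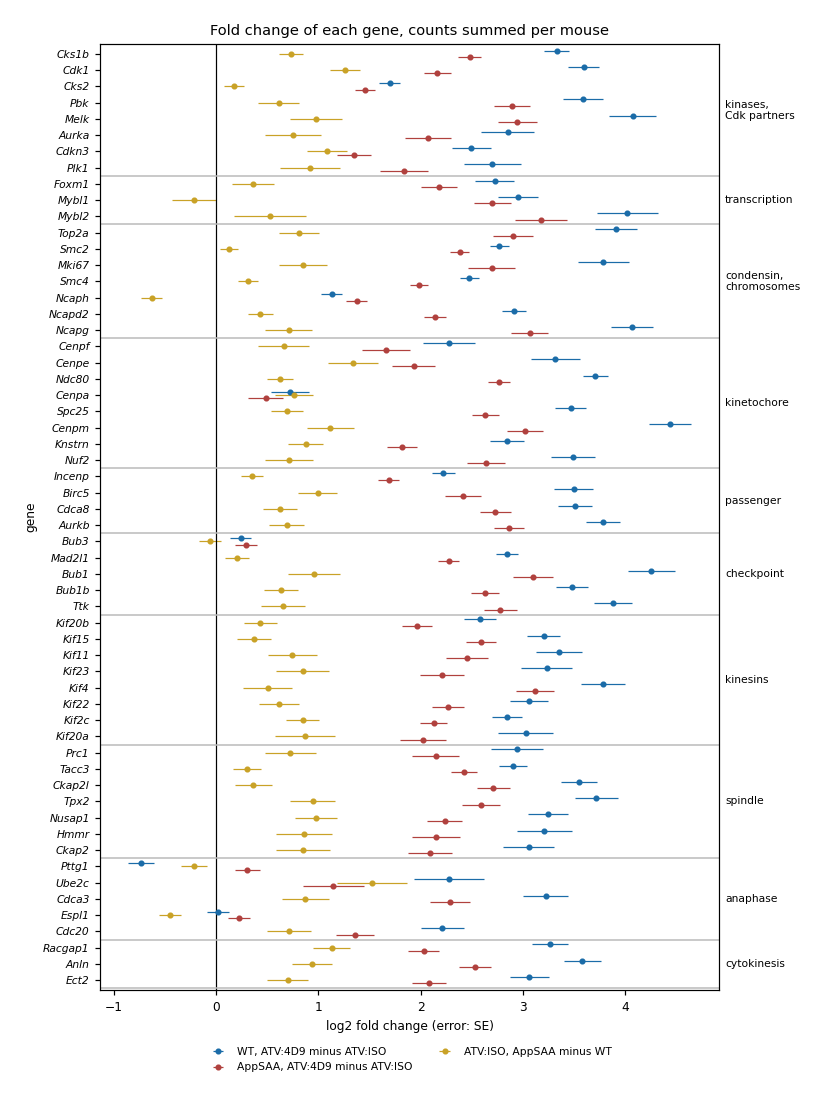
Log2 fold change with its SE for each of the 58 members, for ATV:4D9 minus ATV:ISO in WT (blue) and AppSAA (red) mice and for AppSAA minus WT under ATV:ISO (gold). Blue points lie to the right of red ones for most genes, with Pttg1 at -0.73 in WT and 0.31 in AppSAA. Gold points lie between -0.63 and 1.53, with Ube2c highest.

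Other genes of the same processes, on lists drawn up by name, are given beside the 30.8% of all genes called higher and 32.5% lower in WT and 27.9% and 27.1% in AppSAA, with no test between lists. All 13 cyclins and their regulators rose in both genotypes (medians 2.75 and 1.54), led in WT by Wee1 (4.24) and Ccna2 (3.70). Of 36 further kinetochore genes, 35 rose and 1 fell in each genotype (medians 2.40 and 1.99), with Cenph and Oip5 each at 4.50 in WT and Mad2l1bp at -0.52. Of 22 further spindle and cytokinesis genes, 21 rose in each (medians 3.12 and 2.25), with Dlgap5 at 4.11 and Fam83d at 3.77 in WT. Of 15 further cohesin and condensin genes, 9 rose and 3 fell in WT and 8 rose and 2 fell in AppSAA (medians 0.62 and 0.48), with Esco2 (4.35) and Cdca5 (3.97) highest and Mau2 (-0.67) and Nipbl (-0.53) lowest in WT. Of 17 genes of the anaphase-promoting complex, 8 rose and 3 fell in WT and 7 rose and 1 fell in AppSAA (medians 0.16 and 0.11), with Fbxo5 (2.33) and Ube2s (1.13) highest and Anapc16 (-0.26) and Fzr1 (-0.20) lowest in WT. Of 5 MuvB genes, 3 rose in each genotype (medians 0.76 and 0.75). For S phase, the stage before mitosis, all 26 listed genes rose in both genotypes, with medians of 3.92 and 3.11 and with Hells (5.08) and Dtl (5.04) highest in WT.

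4D9 without the vehicle changed no member at this threshold. In AppSAA mice, 0 of 58 members were called against ATV:ISO and 0% of all genes were called higher or lower by edgeR, and DESeq2 and limma-voom called none of the members either. At an unadjusted p under 0.05 there was 1 member and 79 genes in all, the member being Kif4 (0.55 ± 0.20). That count of 1 became 8 (280 genes in all) with the pool as a block. Without AppSAA mouse 1, 2 or 3 given 4D9 it was 13, 0 or 6, and without AppSAA mouse 1, 3 or 4 given ATV:ISO 4, 2 or 5, with none called in any of these fits. The members' median was 0.20, with 56 of 58 above 0. It was 0.09 and 0.12 without mouse 2 or 4 given 4D9 and -0.0086 without the cells of coarser cluster 4. No member had 4D9 and ATV:ISO groups that did not overlap (0.32% of all genes higher and 0.334% lower). Against 4D9, ATV:4D9 raised 56 of 58 members (27.6% of all genes were called higher and 26.7% lower), with a median of 2.11 and in CPM no overlap for 55, all higher (23% of all genes). The members not called were Cenpa (0.23 ± 0.17) and Espl1 (0.24 ± 0.11), the latter called with the pool as a block (0.24, adjusted p = 0.014). These 3 AppSAA comparisons share groups of mice.

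Under ATV:ISO, AppSAA mice had higher levels than WT mice for 43 members and lower levels for 2, where 14.4% and 13.7% of all genes were called higher and lower. The median difference was 0.71, beside -0.06 over all genes, and in CPM 16 members did not overlap with AppSAA higher (9.5% of all genes) and 4 with AppSAA lower (30.6%). CPM are not TMM-scaled, and over all genes their overlap leaned lower in AppSAA, unlike the edgeR calls. Cdk1 had the smallest adjusted p, at 14.4 to 15.7 CPM in AppSAA and 5.08 to 9.08 in WT controls (1.26 ± 0.14, adjusted p = 1.4e-06). By size, Ube2c (1.53 ± 0.34) and Cenpe (1.34 ± 0.24) differed more, and Racgap1 (1.13 ± 0.18) and Cenpm (1.12 ± 0.23) less. The lower members were Ncaph, at 7.24 to 9.30 CPM against 13.6 to 16.9 (-0.63 ± 0.11, adjusted p = 0.00012), and Espl1, at 8.10 to 11.3 against 14.3 to 16.1 (-0.45 ± 0.11, adjusted p = 0.0039). None of the 3 transcription factors was called, with Foxm1 at 0.36 ± 0.21, Mybl1 at -0.22 ± 0.21 and Mybl2 at 0.53 ± 0.35. With the pool as a block, 45 members were higher and 3 lower. Cenpf (0.65, adjusted p = 0.0497) and Kif15 (0.37, adjusted p = 0.046) were added as higher and Pttg1 (-0.21, adjusted p = 0.018) as lower. Without a block, the higher count dropped to 26 when the WT mouse given ATV:ISO in pool 2 was left out. That mouse and the one in pool 1 had the lowest levels of many members. Without the cells of coarser cluster 4, described below, the median difference was 0.14, with 7 members higher (14.9% of all genes) and 2 lower (9.51%).

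With ATV:4D9 in both genotypes, fewer members differed. AppSAA mice were higher for 1 member and lower for 6, with 7.84% and 3.98% of all genes called. The 1 higher member was Pttg1, at 45.2 to 57.7 CPM against 30.2 to 38.4 in WT (0.83 ± 0.12, adjusted p = 0.0001). The 6 lower were Ncaph (-0.39 ± 0.10), Mad2l1 (-0.36 ± 0.09), Ncapd2 (-0.34 ± 0.10), Ndc80 (-0.32 ± 0.10), Ttk (-0.45 ± 0.14) and Ckap2l (-0.47 ± 0.14). The median was -0.17. It was -0.07 without WT mouse 1 and -0.09 without AppSAA mouse 3 given ATV:4D9, and -0.0083 without the cells of coarser cluster 4. In CPM, 23 members did not overlap with AppSAA lower (16.6% of all genes) and 1 with AppSAA higher (5.52%). CPM are not TMM-scaled, and over all genes their overlap leaned lower in AppSAA while the edgeR calls leaned higher. The 23 are thus not on the scale of the 6 calls. With the pool as a block, 13 members were lower (14.4% of all genes in that fit) and 2 higher (17%), the second being Cenpa. Without single mice the count of lower members went from 0 to 7, with 2 without WT mouse 1 or 3, 3 without WT mouse 4, 1 without AppSAA mouse 2 and 0 without AppSAA mouse 3 given ATV:4D9.

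The log2 fold change with ATV:4D9 was smaller in AppSAA than in WT mice for 31 members and larger for 1, by the genotype by treatment interaction, where 3.79% of all genes were called higher and 5.35% lower. This test shares its WT and AppSAA controls with the comparisons above. With the pool as a block, 44 members were lower (13.6% of all genes) and 1 higher (16.9%), with Smc2, Kif23, Ckap2 and Mybl2 among the 13 added. Without a block, the 31 became 27 with limma-voom and 42 with DESeq2. Leaving out 1 mouse gave 21 to 37, lowest without the WT mouse given ATV:ISO in pool 2. The median interaction was -0.85 on the log2 scale, beside 0.04 over all genes. Cdk1 had the widest difference (-1.43 ± 0.19, adjusted p = 8.3e-05), followed by Cenpm (-1.41 ± 0.27), Cenpe (-1.39 ± 0.31) and Racgap1 (-1.24 ± 0.23). Pttg1 was the 1 member called with a positive interaction (1.04 ± 0.18, adjusted p = 0.00072), having fallen in WT, and Ncaph (0.24), Espl1 (0.21) and Bub3 (0.05) were above 0 without a call. Without the cells of coarser cluster 4, described below, 2 members were lower (4.44% of all genes) and 2 higher (2.2%), with a median of -0.17.

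Counted per cell, few cells held many of the members without ATV:4D9, though most held at least 1. Bub3 and Pttg1 had a UMI in many cells of every group, as given below, so holding at least 1 member is no measure of cells in mitosis. Depth per cell differed, so each cell was thinned to 5000 UMIs, which left out 11% of cells of WT mice given ATV:ISO, 2.52% with ATV:4D9, and 6.76%, 7.05% and 3.57% of AppSAA cells with ATV:ISO, 4D9 and ATV:4D9. A thinned cell then held a UMI of 1.52 members on average in WT mice given ATV:ISO and of 6.21 with ATV:4D9, and of 1.51, 1.56 and 4.84 in the AppSAA groups in the same order. Cells with at least 10 members made up 0.325% and 20.6% in WT and 0.898%, 1.21% and 14.7% in AppSAA. Without thinning these were 0.505% and 45.9% in WT and 1.63%, 2.03% and 33.4% in AppSAA.

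By gene, Top2a had a UMI in 2.16 ± 0.989% of thinned WT cells with ATV:ISO and 31.5 ± 2.97% with ATV:4D9, and in 2.61 ± 0.949%, 3.19 ± 0.972% and 21.9 ± 2.77% of AppSAA cells with ATV:ISO, 4D9 and ATV:4D9 (means ± SD, n = 4). Without thinning Top2a was in 3.47 ± 1.72%, 46.3 ± 4.34%, 4.75 ± 2.13%, 5.35 ± 2.29% and 34.2 ± 5.17%. In deposited cluster 0 of the coarser clustering, where the set is low, Top2a was in 1.62% to 2.88% of thinned cells. Cluster 0 held 60.4% of cells in WT mice given ATV:ISO, and 30.8% and 30.4% in AppSAA mice given ATV:ISO and 4D9. It is thus a part of these groups and no separate background for them.
Mki67 had a UMI in 1.45 ± 0.482% and 22.9 ± 2.52% of thinned WT cells with ATV:ISO and ATV:4D9 and in 2.01 ± 0.547%, 2.15 ± 0.562% and 16.2 ± 1.92% of AppSAA cells. Without thinning Mki67 was in 2.20 ± 0.850%, 33.5 ± 4.12%, 3.34 ± 1.12%, 3.58 ± 1.26% and 24.3 ± 3.66%, and in cluster 0 in 1.02% to 2.32% of thinned cells.
Cdk1 was in 2.44 ± 0.746% and 24.7 ± 2.59% of thinned WT cells and in 4.66 ± 0.197%, 4.69 ± 0.676% and 19 ± 2.91% of AppSAA cells. Without thinning Cdk1 was in 4.10 ± 1.08%, 48.2 ± 4.79%, 10.4 ± 0.956%, 10.7 ± 2.18% and 38.6 ± 5.35%, and in cluster 0 in 2.17% to 4.64% of thinned cells.
Pttg1 differed from these. It had a UMI in 25.7 ± 1.84% of thinned WT cells with ATV:ISO and 14.8 ± 1.17% with ATV:4D9, and in 20.9 ± 1.88%, 20.8 ± 1.04% and 22.8 ± 2.32% of AppSAA cells. Without thinning Pttg1 was in 37.5 ± 1.29% and 36.5 ± 3.29% of WT cells.
Bub3 had a UMI in 37.2 ± 2.83% and 38.8 ± 2.18% of thinned WT cells and in 33.1 ± 1.07%, 32.6 ± 1.41% and 34.1 ± 2.25% of AppSAA cells. No cell type that should lack Bub3 gives a background for these shares.

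The authors deposited clusters of the cells at resolution 0.2 (6 coarser clusters, 0 to 5) and 0.4 (9 finer clusters, 0 to 8), without names. The cells were clustered on genes that may include these members, so levels between clusters are a description with no test. Of the 58 members, 57 had their highest mean level in coarser cluster 4. There Mki67 averaged 519.9 ± 238 CPM over the 16 mice with at least 20 cells, against 1.83 to 13.4 CPM in the other 5 clusters, and Top2a 581 ± 217 against 3.77 to 25.9. The exception was Pttg1, at 100.3 ± 13.9 CPM in coarser cluster 5 and 34.3 ± 9.0 in cluster 4. Bub3 and Espl1 were also spread widely, with Bub3 at 154 ± 39.3 CPM in cluster 4 and 62.9 to 91.0 elsewhere, and Espl1 at 24.5 ± 7.26 CPM in cluster 4 and 5.74 to 15.3 elsewhere. Of all cells, cluster 4 held 0.351% ± 0.0872 in WT mice given ATV:ISO and 39.95% ± 4.44 with ATV:4D9. In AppSAA mice it held 0.949% ± 0.190, 1.27% ± 0.311 and 22.35% ± 3.33 with ATV:ISO, 4D9 and ATV:4D9. The part of these shares in the members' changes per mouse was not tested apart from the refit without these cells. Cluster 4 held 20.2% ± 8.95 of the members' summed UMIs in WT mice given ATV:ISO and 82.5% ± 2.06 with ATV:4D9, and 38.9% ± 1.86, 44.1% ± 9.0 and 75.2% ± 2.53 in AppSAA mice with ATV:ISO, 4D9 and ATV:4D9. Its cells also had a median of 18033.5 UMIs, against 7178 and 8877 in clusters 0 and 3 and 14334 to 15234 in clusters 1, 2 and 5. In all, 7 cells (0.00936%) had more UMIs of another cell type's marker list than of the microglial list. Of these, 6 were in finer clusters 4 and 7, where they made up 0.0540% of cells.

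The finer clustering splits these cells into clusters 4 and 7, in which the members stood at different levels. Finer cluster 4 shares 6988 cells with coarser cluster 4 and 1122 with coarser cluster 2, and finer cluster 7 shares 2977 with coarser cluster 4. In the 8 mice given ATV:4D9, all 58 members averaged higher in finer cluster 7, by very unequal ratios. Cenpa averaged 1.30 ± 0.35 CPM in finer cluster 4 and 94.9 ± 22.1 in finer cluster 7, a ratio of 73.2. Ube2c averaged 4.35 ± 1.69 and 167 ± 39.6 (38.4), and Plk1, the polo-like kinase of mitotic entry and exit, 2.88 ± 0.73 and 55.6 ± 6.66 (19.3). Nusap1 (14.3), Hmmr (13.9), Prc1 (10.6) and Cenpf (10.6) came next. At the other end, Mybl2 averaged 18.1 ± 2.70 and 21.9 ± 3.63 CPM (1.21), Mad2l1 39.2 ± 1.90 and 62.6 ± 5.54 (1.60), Bub3 98.5 ± 4.94 and 167 ± 11.8 (1.70) and Cks1b 106 ± 8.13 and 191 ± 9.59 (1.79). Pttg1 was at 27.5 ± 5.67 and 32.2 ± 5.97 (1.17). Mki67 and Top2a lay between, at ratios of 4.27 and 3.92.

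**Figure D4:**
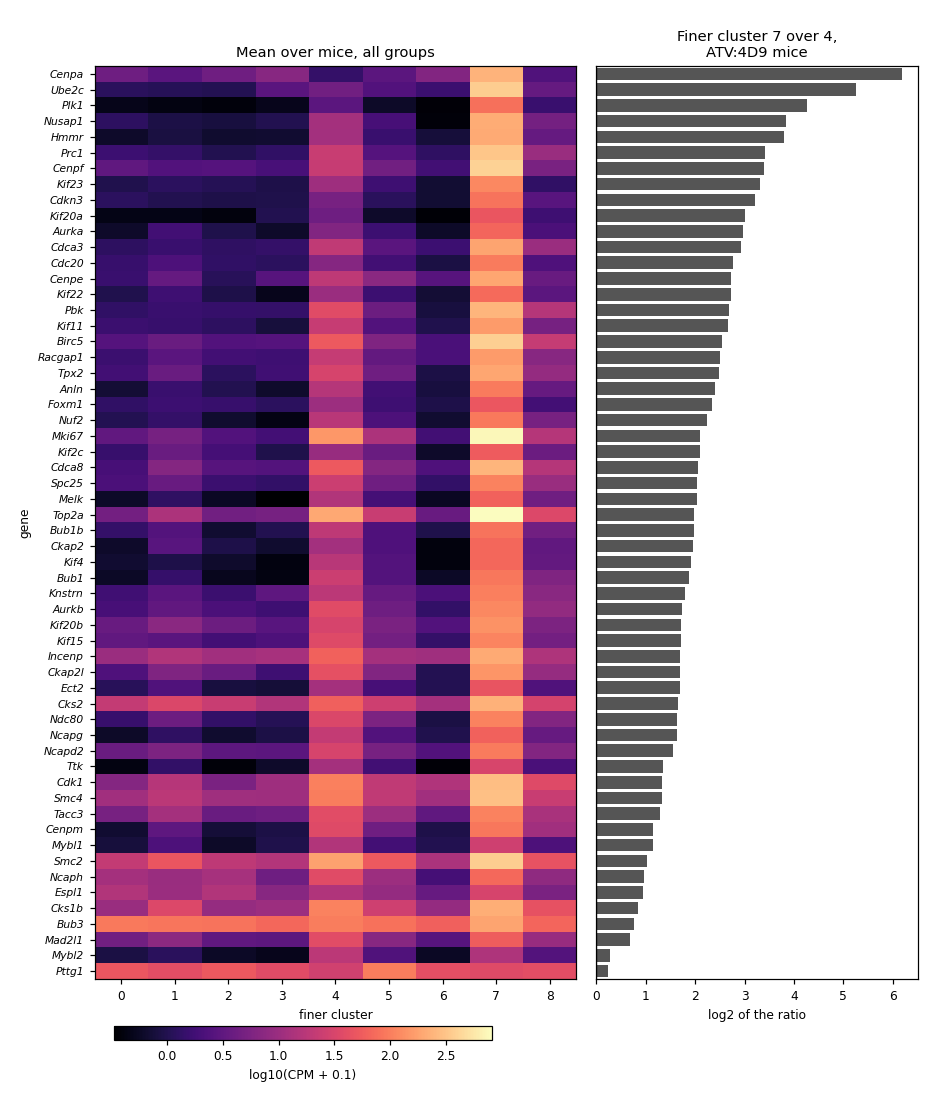
Left, mean level of each member in the 9 finer clusters as log10(CPM + 0.1), over mice of all groups with at least 20 cells. Right, bars of the log2 ratio of finer cluster 7 to finer cluster 4 in the 8 mice given ATV:4D9, longest for Cenpa (ratio 73.2) and shortest for Pttg1 (1.17).

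Within coarser cluster 4, the direction with ATV:4D9 was opposite to that of the sums per mouse. Against AppSAA mice given ATV:ISO, 53 of 58 members were lower and 1 was higher, where 13% of 11342 genes were called higher and 11.5% lower, and the median was -1.0 beside 0.0035 over all genes. The ATV:ISO side rests on 27 to 74 cells per mouse, against 445 to 1438 with ATV:4D9. Cenpa went from 326 ± 89.5 to 41.9 ± 9.13 CPM (-2.96 ± 0.20), and Ube2c (-2.77 ± 0.24) and Cdc20 (-2.49 ± 0.21) were next. Mki67 went from 722 ± 71.4 to 337 ± 69.2 CPM (-1.11 ± 0.14) and Top2a from 803 ± 104 to 425 ± 47.4 (-0.93 ± 0.11). Mybl2 was the 1 higher member (1.00 ± 0.25, adjusted p = 0.0047), from 8.86 ± 4.36 to 20.3 ± 3.19 CPM. Those not called were Ncaph (-0.22 ± 0.11), Pttg1 (-0.17 ± 0.17), Mad2l1 (-0.08 ± 0.12) and Mybl1 (0.42 ± 0.23). A thinned cell of this cluster held 23.8 members on average with ATV:ISO, 23.9 with 4D9 and 13.8 with ATV:4D9 in AppSAA mice, and 11.6 with ATV:4D9 in WT mice. 4D9 against ATV:ISO gave 0 members called by edgeR here (0% of all genes) and 1 at an unadjusted p under 0.05.

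The share of these cells in finer cluster 7 moved with that result. Finer cluster 7 made up 72.4% ± 4.57 of the cells of both in AppSAA mice given ATV:ISO, 79.9% ± 6.85 with 4D9 and 31.5% ± 2.60 with ATV:4D9, and 21.2% ± 2.54 in WT mice given ATV:4D9. WT mice given ATV:ISO had only 7 and 29 cells in finer clusters 4 and 7. Cluster membership rests in part on these genes, so the share is no result by itself, and its part in the lower levels was not tested apart from the fit within finer cluster 7.

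Within finer cluster 7 alone, 27 members were lower and 2 higher with ATV:4D9 in AppSAA mice (10.4% of 10385 genes lower and 12.3% higher), and the median was -0.31. The ATV:ISO side holds 22 to 60 cells per mouse, against 164 to 461 with ATV:4D9. Cenpa (-1.75 ± 0.17, adjusted p = 1.3e-07), Ube2c (-1.62 ± 0.21), Cdc20 (-1.55 ± 0.20) and Cdkn3 (-1.29 ± 0.15) were lower by most. Mki67 was lower by less (-0.42 ± 0.13, adjusted p = 0.022) and Top2a was not called (-0.23 ± 0.10, adjusted p = 0.12). Mybl2 (1.31 ± 0.32, adjusted p = 0.0044) and Mybl1 (0.82 ± 0.25, adjusted p = 0.021) were higher. A thinned cell of finer cluster 7 held 26.4 members on average with ATV:ISO and 23.2 with ATV:4D9.

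**Figure D5:**
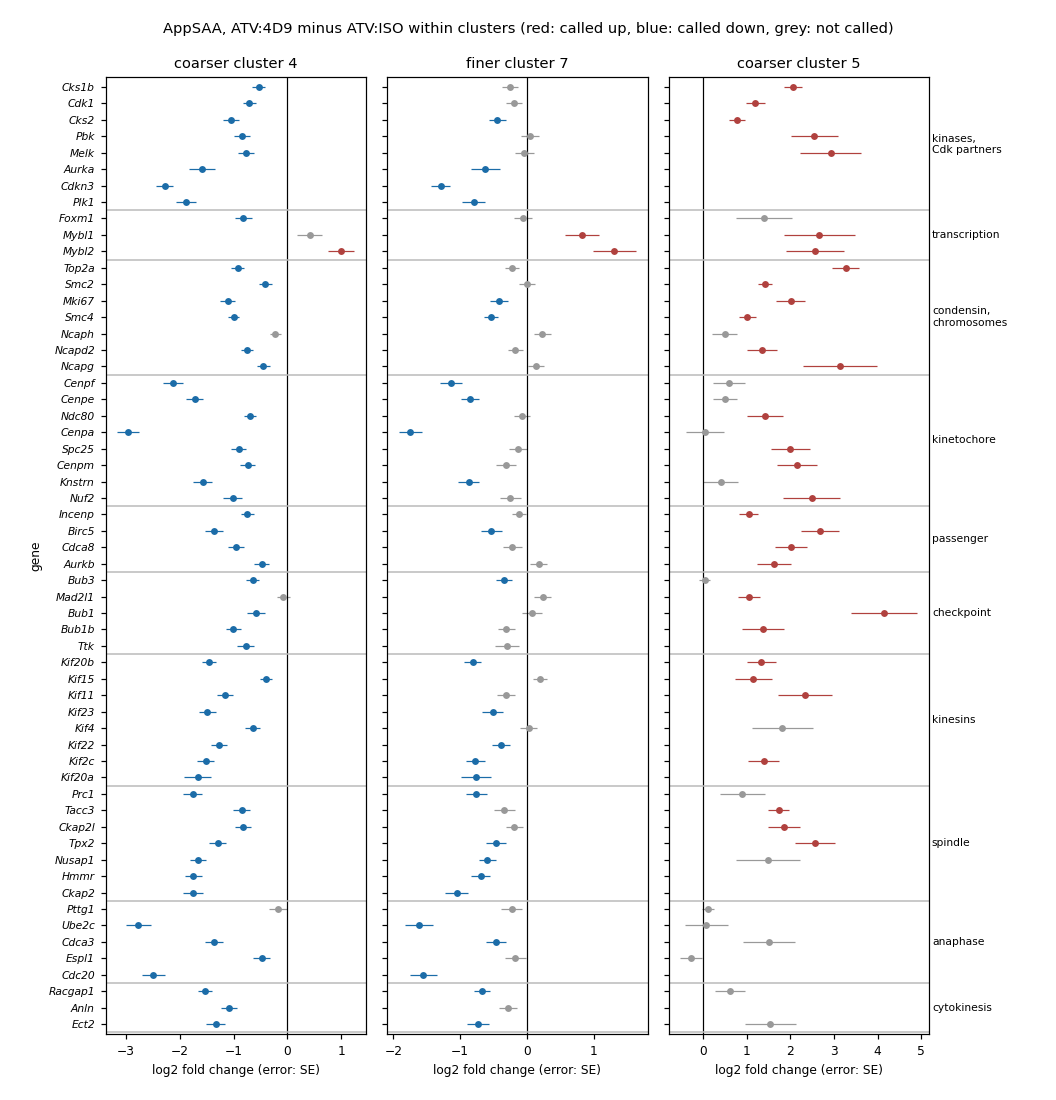
Log2 fold change with its SE for ATV:4D9 minus ATV:ISO in AppSAA mice, for each member within coarser cluster 4, finer cluster 7 and coarser cluster 5. Called members are red where higher and blue where lower, grey ones were not called, and the points are mostly blue in cluster 4 (53), mixed in finer cluster 7 (27 lower, 2 higher) and red in cluster 5 (31).

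In the other coarser clusters most members were lower than in cluster 4, and ATV:4D9 raised many of them in some clusters and few or none in others. In coarser cluster 5, 31 of 47 members tested rose and none fell in AppSAA mice (14.6% and 12.4% of all genes), with a median of 1.42. Top2a rose from 3.94 ± 2.45 to 26.8 ± 5.87 CPM (3.27 ± 0.31, adjusted p = 7.4e-08), Bub1 by 4.15 ± 0.77, Ncapg by 3.14 ± 0.85 and Mki67 by 2.00 ± 0.33. Pttg1 (0.11 ± 0.14), Bub3 (0.04 ± 0.13), Espl1 (-0.28 ± 0.25), Cenpa (0.04 ± 0.44) and Ube2c (0.07 ± 0.49) were among those not called. Even so, a thinned cell there held 2.28 members on average with ATV:4D9, against 1.51 with ATV:ISO. The ATV:ISO side of coarser cluster 5 rests on 46 to 233 cells per mouse, against 690 to 1071 with ATV:4D9. The low-count filter, run in each cluster, can keep a member through its ATV:4D9 mice alone, and such a member can hardly be called lower. The lack of lower members and the medians here and in finer clusters 5, 8 and 1 may in part be set by that filter. In finer cluster 5, which shares 4625 cells with coarser cluster 5, 30 of 35 members rose and none fell in AppSAA (18.9% and 16.8%). In WT mice 25 of 35 rose there and none fell (16% and 12.9%), with a median of 2.56, Top2a at 3.39 ± 0.40 and Pttg1 (0.22 ± 0.19) not called. The WT values rest on 22 to 48 cells in each of 3 ATV:ISO mice, so their folds can stand on very few ATV:ISO UMIs. In WT, coarser cluster 5 held 58% of the 112 ATV:ISO cells of all 4 mice, against 85.9% of 759 with ATV:4D9. In AppSAA it held 75.6% of 581 ATV:ISO cells and 88.9% of 3699 with ATV:4D9. Clusters 0 and 3 held 12.2% and 8.26% of the former and 0.406% and 0.378% of the latter, and cluster 4 held 0% and 1.27%. In finer cluster 8, 48 of 50 were higher with ATV:4D9 in AppSAA and none lower (14.3% and 13%), with a median of 2.61, led by Ncapg (3.76 ± 0.59) and Cdca3 (3.70 ± 0.45), while Pttg1 (0.17 ± 0.16) and Espl1 (0.80 ± 0.48) were not called. Finer cluster 8 held different cells in the groups compared. Of its 695 cells from AppSAA mice given ATV:ISO, 95.1% were in coarser cluster 1 and 0.576% in cluster 4, while of its 831 cells with ATV:4D9, 27% were in cluster 1, 51% in cluster 2 and 20.2% in cluster 4. A change within cells of 1 kind and a change in which cells it holds cannot be told apart there.

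In coarser cluster 2, 6 of 29 members rose and 2 fell with ATV:4D9 in AppSAA mice (6.89% and 6.3% of all genes). Those higher were Tacc3 (0.96 ± 0.21), Cks1b (0.82 ± 0.15), Ncaph (0.76 ± 0.22), Pttg1 (0.50 ± 0.13), Smc2 (0.46 ± 0.14) and Cks2 (0.44 ± 0.13), and those lower were Kif15 (-1.15 ± 0.36) and Mki67 (-1.13 ± 0.28). The 6 became 1 without ATV:ISO mouse 3, and the 2 became 0 without ATV:ISO mouse 4 and 1 without ATV:ISO mouse 1 or ATV:4D9 mouse 1, 2 or 3. In finer cluster 1, which shares 11900 cells with it, 14 of 18 members tested were higher and none lower (11.2% and 7.51%). In WT mice 1 of 29 members rose in coarser cluster 2 and none fell (3.19% and 2.69%), Mad2l1 (2.18 ± 0.42), while in finer cluster 1 there were 11 of 18 higher and none lower (6.16% and 4.61%). The 1 in coarser cluster 2 became 6 with the pool as a block (5.84% of all genes), 4 without WT mouse 1 given ATV:ISO, 3 without mouse 2 given ATV:4D9 and 2 without mouse 2 or 3 given ATV:ISO. In coarser cluster 0, 0 of 39 members were called by edgeR in AppSAA mice (0.53% and 0.137% of all genes), with 8 at an unadjusted p under 0.05 and 1 called higher with the pool as a block (3.54% of all genes). In WT mice 0 were called by edgeR (1.02% and 0.453%), with 7 at that level and 1 called lower with the block (3.74%). The ATV:4D9 side of cluster 0 rests on 37 to 195 cells per mouse in AppSAA and 60 to 186 in WT. In coarser cluster 1, 0 of 55 were called in AppSAA mice (0.92% and 0.422%), with 7 at that level and 5 called higher with the block (4.07%). In the finer clusters that share most cells with it (3, 6 and 8 summed), 36 of 58 were higher and none lower (2.98% and 1.03%), with a median of 1.27, and these include the cells of finer cluster 8. A thinned cell of cluster 0 held between 1.41 and 1.48 members on average in all 5 groups. In coarser cluster 3, Cks1b was the 1 of 40 members higher in AppSAA mice (0.96 ± 0.19), where 3.37% and 0.963% of all genes were called, and 3 were higher with the block (8.25%). In WT mice 4 rose there, Tpx2 (1.61 ± 0.43), Ckap2l (1.35 ± 0.38), Cks1b (0.81 ± 0.21) and Cks2 (0.54 ± 0.16), and Ncaph (-0.68 ± 0.18) and Pttg1 (-0.51 ± 0.12) fell (4.15% and 2.02%). The 4 became 0 without WT mouse 2 given ATV:ISO, 2 without WT mouse 1 or 3 given ATV:4D9 and 1 without WT mouse 4 given ATV:4D9. The 2 became 1 without WT mouse 4 of either antibody and 0 without WT mouse 2 given ATV:4D9. In finer cluster 2, which shares 11197 cells with coarser cluster 3, edgeR called 0 of 42 members in WT (1.16% and 0.318% of all genes) and 0 in AppSAA (1.26% and 0.301%), with 7 and 8 at an unadjusted p under 0.05.

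Between genotypes under ATV:4D9, the members called in coarser clusters 4 and 5 differed in opposite directions. In coarser cluster 4, AppSAA mice were higher for 14 members and lower for none (2.49% and 0.273% of all genes), with a median of 0.40, led by Cenpa (1.07 ± 0.19, adjusted p = 0.00076) and Ube2c (1.00 ± 0.22), and 47 were higher with the pool as a block (6.44% of all genes in that fit). Leaving out 1 mouse gave 2 to 25, with 25, 2, 2 and 5 without WT mouse 1, 2, 3 or 4 and 14, 4, 4 and 8 without AppSAA mouse 1, 2, 3 or 4 given ATV:4D9. Pttg1 was among the 14 (0.59 ± 0.12). In finer cluster 4, 0 members were called by edgeR (1.41% higher and 0.0723% lower of all genes), with 22 at an unadjusted p under 0.05. In finer cluster 7, where 1.68% and 0.116% of all genes were called higher and lower, Pttg1 alone of 58 was called (0.54 ± 0.12, adjusted p = 0.011). In coarser cluster 5, 18 of 47 members were lower in AppSAA mice and none higher (2.79% and 3.64%), among them Kif4 (-1.38 ± 0.32), Top2a (-1.0 ± 0.15, adjusted p = 0.00014), Mki67 (-0.96 ± 0.19) and Smc2 (-0.83 ± 0.11), and 10 were lower without WT mouse 1 given ATV:4D9. The low-count filter can keep a member there through the WT mice given ATV:4D9 alone. Such a member can hardly be called higher in AppSAA, so the lack of higher members may in part be set by that filter. The WT mice given ATV:ISO had too few cells in coarser clusters 4 and 5 for the WT treatment contrast there.

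Because cluster 4 holds most of the members' UMIs after ATV:4D9, the sums per mouse were refitted without its cells, an alternative chosen after seeing the data. In WT mice, 46 members then rose and 3 fell (31.1% and 27.8% of 13663 genes), with a median of 1.77. In AppSAA mice, 52 rose and 1 fell (26.2% and 23.1%), with a median of 1.46. Mki67 still rose by 2.10 in WT and 1.84 in AppSAA, Top2a by 2.72 and 2.46, and Cdk1 by 2.65 and 1.34. Ncaph was no longer called in WT (0.15), and Pttg1 stayed lower in WT (-0.36) and higher in AppSAA (0.54). Under ATV:ISO, 7 members were higher and 2 lower in AppSAA than in WT mice (14.9% and 9.51%), with Cdk1 at 1.34, Ncaph at -0.71 and Espl1 at -0.43. The cells removed were chosen by clusters that these genes may have shaped. The 1122 cells of finer cluster 4 that lie in coarser cluster 2 stayed in, so these rises are not all outside that finer cluster.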

How the data were processed

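Brain microglia of 20 mice, 4 in each of 5 groups, were profiled by single-cell RNA sequencing in 4 pools, each holding 1 tagged mouse of every group. The authors deposited UMI counts per gene and cell, the UMI count of each cell, the percent of its UMIs on mitochondrial genes, its mouse and its clusters. The submitters' processing notes name Cell Ranger 6.1.1 and mm10, and the study's methods name Seurat for clustering. Which cells were removed, and whether doublets were, is not given in the sources used here. No doublet caller was run and no cell was removed. Counts per cell summed to the deposited total in all 74758 cells.

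Counts were summed over the cells of each mouse and of each cluster with at least 20 cells of that mouse, and tested with the quasi-likelihood test of edgeR 4.0.16 (R 4.3.3) after filterByExpr and TMM, over all genes, with all 20 mice in 1 model and Benjamini-Hochberg adjusted p under 0.05. SEs are the log2 fold change over the square root of F. A cluster contrast needed 3 mice in both groups. DESeq2 1.42.0, limma-voom 3.58.1 (the study's test), RLE size factors, no low-count filter, the pool as a block and each mouse left out were alternatives. The fit and the thinning were tested on simulated data.

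Mice of 1 pool deviated together from their group means (median r 0.394 over 40 pairs, range 0.143 to 0.607, against -0.193 over 120 pairs from different pools), so the pool, 1 tagged library, pairs them. The mice were taken as separate animals from the labels.

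The members, their 10 roles, 6 lists of 108 further genes of the same processes, 26 S phase genes and the cell type markers were chosen with earlier results of these data known. A further gene of the microglial list is not reported here. Values per mouse were given for the highest and the most changed member of each role, Mki67, Top2a, up to 5 called members of each other contrast and any that moved against its role. Of further lists of 10 or more genes the extremes were named. Other genes were named after their values were seen. RefSeq promoter entries matched 50 members by symbol.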

Additional observations from a re-analysis of the deposited data

Results flagged for a closer look

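In 6 of 140 sets of 4 mice tested, 1 mouse stood far from the other 3 by Dixon's criterion, and chance gives about 1 in 20. Aurkb was low in AppSAA mouse 2 given ATV:ISO (3.00 CPM). Top2a was low in WT mouse 2 given ATV:4D9 (147 CPM). Anln was high in AppSAA mouse 3 given ATV:ISO (2.81 CPM) and low in AppSAA mouse 1 given 4D9 (1.60 CPM). Prc1 was high in WT mouse 1 given ATV:4D9 (41.5 CPM), and Bub3 was high in AppSAA mouse 1 given ATV:ISO (83.5 CPM).

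The change with ATV:4D9 differed between genotypes for 19 of the 28 members given with values per mouse, by the interaction term of the edgeR fit (AppSAA minus WT, on the log2 scale). It was higher in AppSAA for Pttg1 (1.04). It was lower by most for Cdk1 (-1.43), Cenpm (-1.41) and Cenpe (-1.39). Racgap1 (-1.24), Bub1 (-1.15), Melk (-1.13), Tpx2 (-1.12), Mki67 (-1.09), Anln (-1.05), Top2a (-1.0) and Ncapg (-1.0) came next. Ndc80 (-0.94), Cdca3 (-0.93), Aurkb (-0.92), Cks1b (-0.85), Ncapd2 (-0.77), Mad2l1 (-0.57) and Incenp (-0.54) differed least. These values share their control mice. Some of the 28 were picked for the smallest adjusted p in this same interaction, so the count of 19 is no rate. Among all 58 members, 31 were called lower and 1 higher, beside 5.35% and 3.79% of all genes tested.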

How the results depend on the processing

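Of 344 counts of called members recomputed under an alternative, 307 stayed within 1.5 times the count reported, and of 3164 recomputed log2 fold changes 2991 kept direction and call, 131 lost and 37 gained the call and 5 changed sign. The 5 came from leaving out the cells of coarser cluster 4, chosen after seeing the data: the Cdca3 interaction (0.24), Cenpf (-0.16) and Espl1 (-0.28) in WT with ATV:4D9, and Kif20b (-0.051) and Prc1 (-0.27) in AppSAA against WT under ATV:ISO. Without those cells, 3 members fell in WT (27.8% of all genes) and 1 in AppSAA (23.1%) with ATV:4D9. In AppSAA against WT, 7 were higher under ATV:ISO (14.9%), and 3 were higher (8.12%) and 1 lower (3.17%) under ATV:4D9. Of the interactions, 2 were positive (2.2%) and 2 negative (4.44%). Out of 58 members, none of these counts stood far above its share. The cause was not tested.

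With the pool as a block, AppSAA against WT under ATV:4D9 gave 2 members higher and 13 lower, and 47 higher within coarser cluster 4. In AppSAA with ATV:4D9, 1, 5 and 3 members were higher within coarser clusters 0, 1 and 3, and in WT 1 was lower within cluster 0 and 6 higher within cluster 2. No other count of called members between groups or within the coarser clusters given above moved by over 1.5 times with the block, though single calls did, and members at an unadjusted p under 0.05 for 4D9 went from 1 to 8. DESeq2 and limma-voom gave 2 higher under ATV:4D9.

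Leaving out 1 mouse gave 26 to 44 members higher in AppSAA under ATV:ISO, lowest without WT mouse 2. Under ATV:4D9 it gave 1 to 2 higher and 0 to 7 lower, 2 to 25 higher within coarser cluster 4 and 10 to 19 lower within cluster 5. Within coarser cluster 2 in AppSAA, ATV:4D9 gave 1 to 6 higher (1 without ATV:ISO mouse 3 and 4 without mouse 4) and 0 to 2 lower (0 without ATV:ISO mouse 4, 1 without ATV:ISO mouse 1 or ATV:4D9 mouse 1, 2 or 3), 4 lower of 56 with at least 50 cells per mouse, and 14 higher and 0 lower of 18 in the finer cluster that shares most cells. Without the mouse recorded as female, chosen after seeing the data, 55 members rose in WT.

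Limits are the 4 mice per group, the few cells of clusters 4 and 5 in WT mice given ATV:ISO and of cluster 4 in AppSAA mice without ATV:4D9, and levels near 1 CPM for some members. Shares of cells with a UMI moved with the number of UMIs kept per cell.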
